A study of Arabidopsis thaliana with 12 samples.

Results

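Transcript levels in the first internode of the inflorescence stem were compared between wox4-1 and wild-type Arabidopsis thaliana. The comparison uses the 3 arrays labelled as stem of wox4 and the 3 labelled as stem of Col, 6 of the 12 arrays of the study, and covers all 22746 probe sets that are not array controls. WOX4 is a homeobox transcription factor of the vascular cambium, the layer of dividing cells that forms xylem and phloem when a stem thickens. It acts below TDIF, a peptide encoded by CLE41 and CLE44 that is made in the phloem and perceived by the receptor kinase PXY, and it promotes the division of cambium cells. In the stem, secondary growth starts at the base and extends upward, so that an internode segment holds less cambium than the base and consists largely of pith, cortex, epidermis and primary vascular bundles.

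Wild-type plants were Columbia. The mutants are labelled wox4-1, a single allele, and their ecotype is not given in the sources used here. Both genotypes were grown in short days (8 h light) for 3 weeks and in long days (16 h light) thereafter, and were 49 to 58 days old and 15 to 20 cm tall at harvest. All had a first internode of 3.5 cm or longer. The internode segment was 0.5 cm long, from 1.5 to 2.0 cm above the rosette, and each array held the RNA of 13 to 17 pooled stems. The other 6 arrays, 3 per genotype, came from the stem base of such plants and are used here for the spread of the probe sets and as a comparison. Because whole segments were pooled, fewer cells of a type and less RNA per cell cannot be told apart.

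The name WOX4 is carried by no probe set in these tables, and the level of the mutated gene, which would test the labels, was not analysed here. Replicate arrays of the internode correlated with r of 0.993 to 0.997. In both genotypes the segments carried signal for genes of secondary wall formation, with log2 values of 7.07 to 11.90 over 18 measured genes. Wild-type replicate 2 stood apart: 103 probe sets differed more than 2-fold from both other wild-type arrays in the same direction, 102 of them upward, against 0 to 28 on the other 5 internode arrays. On the array of wox4-1 replicate 2 the 3′ over 5′ log2 difference of the actin control was 2.26, against 1.30 to 1.51 on the other 5. Results are therefore given with all arrays and without wild-type replicate 2, and where it matters without wox4-1 replicate 2.

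With all arrays, 55 of 22746 probe sets were called at an adjusted p under 0.05 (0.242%). Of these, 25 were higher in wox4-1 (0.110%) and 30 lower (0.132%), and 12 changed at least 2-fold, 4 upward and 8 downward. In all 55 the 3 arrays of one genotype lay wholly above the 3 of the other, which was the case for 14.7% of all probe sets. The calls were made on the same values and favour such a separation, so it is a description here and below. An unadjusted p under 0.05 was reached by 1819 probe sets (8.0%). The smallest called change was 0.43 on the log2 scale, and the median standard error (SE) over all probe sets was 0.10. Names were given for 27 of the 55 called probe sets, 11 higher and 16 lower, each for a separate gene. Among the 13350 genes with a probe set of their own this is 0.202%, with 0.0824% higher and 0.120% lower.

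**Figure D1:**
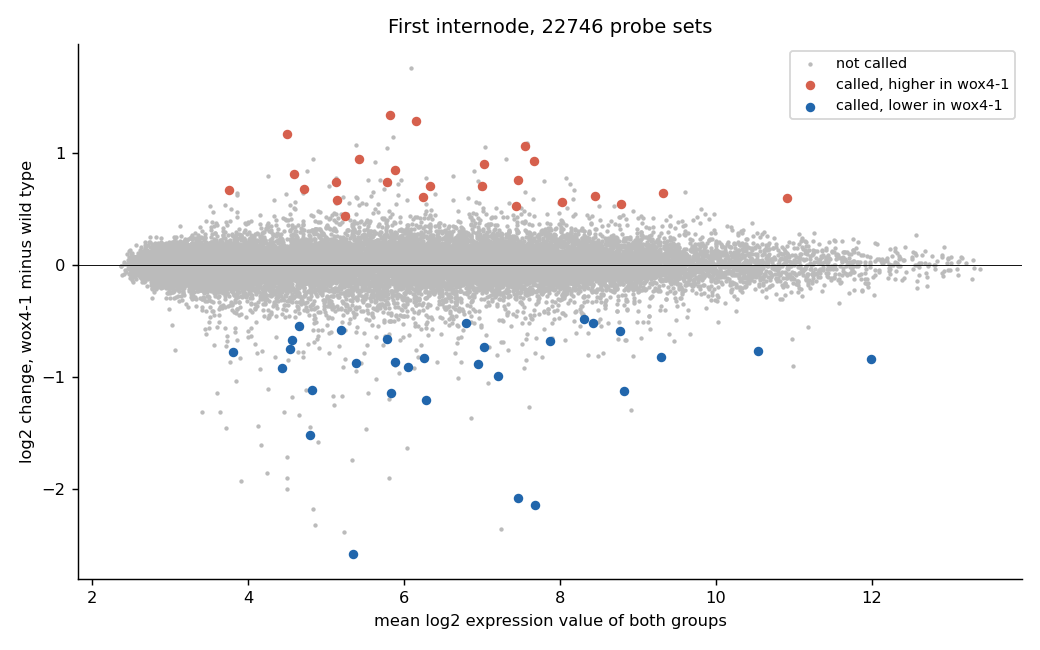
Log2 change in the first internode (wox4-1 minus wild type, vertical axis) against the mean log2 expression value of both genotypes (horizontal axis) for 22746 probe sets. Coloured points are the 25 probe sets called higher and the 30 called lower, which span low to high expression, while most grey points beyond a log2 change of -1 belong to genes that were over 2-fold higher in wild-type replicate 2 than in both other wild-type arrays.

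Among the named genes, the largest falls were of a pair of enzyme genes. AT1G54020, of the GDSL lipase family of secreted esterases, measured log2 6.06, 6.80 and 7.06 on the 3 wild-type arrays and 4.43, 3.98 and 3.77 on the wox4-1 arrays. The genotypes were parted by a gap of 1.63, the widest among the called named genes, and the fall was 5.98-fold (log2 -2.58, SE 0.29, limma adjusted p 0.00355). AT2G34810, a member of the berberine bridge enzyme-like family of flavin oxidases, measured 5.33, 5.84 and 5.49 in wild type and 4.15, 4.03 and 3.94 in wox4-1. Every mutant array was below every wild-type array, and the fall was 2.86-fold (log2 -1.52, SE 0.18, adjusted p 0.00355). The mutant means of 4.06 and 4.04 lay just above log2 4, below which the arrays hardly tell levels apart, and 3 of these 6 mutant values lay under it, so that both falls may be understated. Both calls held when any single one of the 6 internode arrays was left out, with adjusted p of at most 0.0266 and, without wild-type replicate 2, log2 changes of -2.50 and -1.37.

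Further falls, not the next in size, were of a lectin, a defensin-like, a thaumatin family and a hormone-inactivating gene. These genes are grouped here after their values were seen, and some larger falls are given further below. JAL23, a jacalin-related lectin, measured 9.25, 9.33 and 9.57 in wild type and 8.40, 8.19 and 8.19 in wox4-1. All mutant values were lower than all wild-type values, by 2.18-fold on average (log2 -1.13, SE 0.14, adjusted p 0.00406; without wild-type replicate 2 -1.15, adjusted p 0.0266). Related lectins assemble with the beta-glucosidase PYK10, known from roots and seedlings, but the other 6 measured genes of the PYK10 list were not called, with log2 changes from -0.13 to 0.01. AT4G22212, for a small defensin-like protein, measured 6.60, 6.17 and 6.20 against 5.51, 5.43 and 5.43 and fell by 0.86 (SE 0.13, adjusted p 0.0175). It was called in 2 of the 6 leave-one-out fits, among them that without wild-type replicate 2 (adjusted p 0.0383), and not without wild-type replicate 1 (0.0735) or wox4-1 replicate 1, 2 or 3 (0.0598, 0.0711 and 0.0785). AT2G28790, of the thaumatin family of pathogenesis-related proteins, measured 8.69, 8.59 and 8.75 against 8.15, 8.14 and 8.20 and fell by 0.51 (SE 0.08, adjusted p 0.0213). The groups did not overlap, but the call was lost without any 1 of the 6 internode arrays, with an adjusted p of 0.0509 without wild-type replicate 2. AT5G05600, for a dioxygenase that inactivates jasmonic acid, measured 5.72, 6.03 and 5.71 against 5.33, 4.80 and 4.71. It fell by 0.87 (SE 0.16, adjusted p 0.0454), with wox4-1 replicate 1 nearest to the wild type, and had an adjusted p of 0.184 without wild-type replicate 2. None of the 4 measured genes of the jasmonate and wounding list was called, against 0.202% of all named genes. An unadjusted p under 0.05 was found for 0 of them, against 7.27%.

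The gibberellin and auxin lists held 1 called gene each, a fall and a rise. GID1A, a receptor of gibberellin, the hormone that drives stem elongation, measured 7.59, 7.32 and 7.25 in wild type and 6.72, 6.56 and 6.70 in wox4-1. It was lower on every mutant array and fell 1.65-fold (log2 -0.73, SE 0.12, adjusted p 0.0233). The other 2 receptor genes, GID1B and GID1C, had log2 changes of -0.30 and -0.22 and were not called (adjusted p 0.487 and 0.750), and SLY1, the F-box protein that acts after the receptor, had -0.09. YUC6, a flavin monooxygenase of auxin synthesis, measured 4.35, 4.32 and 4.47 in wild type and 5.11, 4.96 and 5.09 in wox4-1. All mutant arrays were above all wild-type arrays, and the rise was 1.60-fold (log2 0.67, SE 0.11, adjusted p 0.0276). Neither call passed without wild-type replicate 2 (adjusted p 0.0642 for GID1A, 0.101 for YUC6), although the log2 changes of -0.76 and 0.64 hardly moved.

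YUC6 was the single call among 16 measured auxin genes, 12 of which had a change below 0 (median -0.06). WES1, for an enzyme that conjugates auxin to amino acids, was at 5.32, 4.93 and 4.88 in wild type and 5.47, 5.46 and 5.56 in wox4-1, a log2 change of 0.46 that did not pass (SE 0.10, adjusted p 0.110). IAA30 and IAA29, both auxin response genes, had changes of 0.37 and -0.44 (adjusted p 0.176 and 0.520). An unadjusted p under 0.05 was found for 4 of the 16, against 7.27% of named genes.

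Among the genes that rose were members of the following 5 families. AT5G07030, of the aspartyl protease family, measured 6.86, 7.09 and 7.11 in wild type and 8.00, 8.43 and 7.81 in wox4-1. It rose 2.08-fold (log2 1.06, SE 0.15, adjusted p 0.0103; 0.0383 without wild-type replicate 2, 0.0629 without wild-type replicate 1), the largest called rise of a named gene, with no overlap of the genotypes. AT5G63180, of the pectate lyase family that cuts the pectin of the wall, measured 4.92, 4.93 and 5.03 against 5.99, 6.01 and 5.70. The wild-type arrays lay within 0.11 of each other and all mutant arrays above them, a rise of 0.94 (SE 0.10, adjusted p 0.00355) that was called in all 6 leave-one-out fits. AT5G44400, a berberine bridge enzyme-like gene like AT2G34810, changed the other way: it measured 8.93, 9.03 and 9.07 against 9.76, 9.53 and 9.67. This rise of 0.64 (SE 0.08, adjusted p 0.00564) also held in all 6 leave-one-out fits, with 0.0266 without wild-type replicate 2. AT3G18280, of the lipid transfer protein family, measured 10.77, 10.59 and 10.47 against 11.18, 11.19 and 11.26 and rose by 0.60 (SE 0.09, adjusted p 0.0103; 0.0520 without wild-type replicate 2). AT4G19820, of the chitinase family, measured 5.78, 5.98 and 6.21 against 6.60, 6.58 and 6.91, again without overlap. It rose by 0.71 (SE 0.12, adjusted p 0.0233; 0.0851 without wild-type replicate 2).

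Another 5 named genes rose. AT1G25230, of the purple acid phosphatase family, measured 8.08, 8.17 and 8.17 in wild type and 8.74, 8.77 and 8.77 in wox4-1, with little spread in either group. It rose by 0.62 (SE 0.08, adjusted p 0.00756) and stayed called in all 6 leave-one-out fits. AT5G58150, for a leucine-rich repeat receptor kinase, measured 5.50, 5.38 and 5.53 against 6.21, 6.63 and 6.10 and rose by 0.85 (SE 0.15, adjusted p 0.0406). Here wox4-1 replicate 2 was the highest array, and leaving out any 1 of the 6 internode arrays ended the call. AT3G55940, for a phosphoinositide-specific phospholipase C, measured 4.76, 4.92 and 4.88 against 5.39, 5.61 and 5.30 and rose by 0.58 (SE 0.09, adjusted p 0.0223; 0.0574 without wild-type replicate 2). AT2G24580, for an oxidoreductase related to sarcosine oxidase, had the smallest called change, a rise of 0.43 (SE 0.08, adjusted p 0.0484; 0.160 without wild-type replicate 2). AT1G59930 rose by 0.74 (SE 0.09, adjusted p 0.00355; 0.0266 without wild-type replicate 2), from 5.37, 5.36 and 5.49 to 6.16, 6.14 and 6.14. Its probe set is of a type that can also bind related transcripts, so that this rise may not be of AT1G59930 alone.

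**Figure D2:**
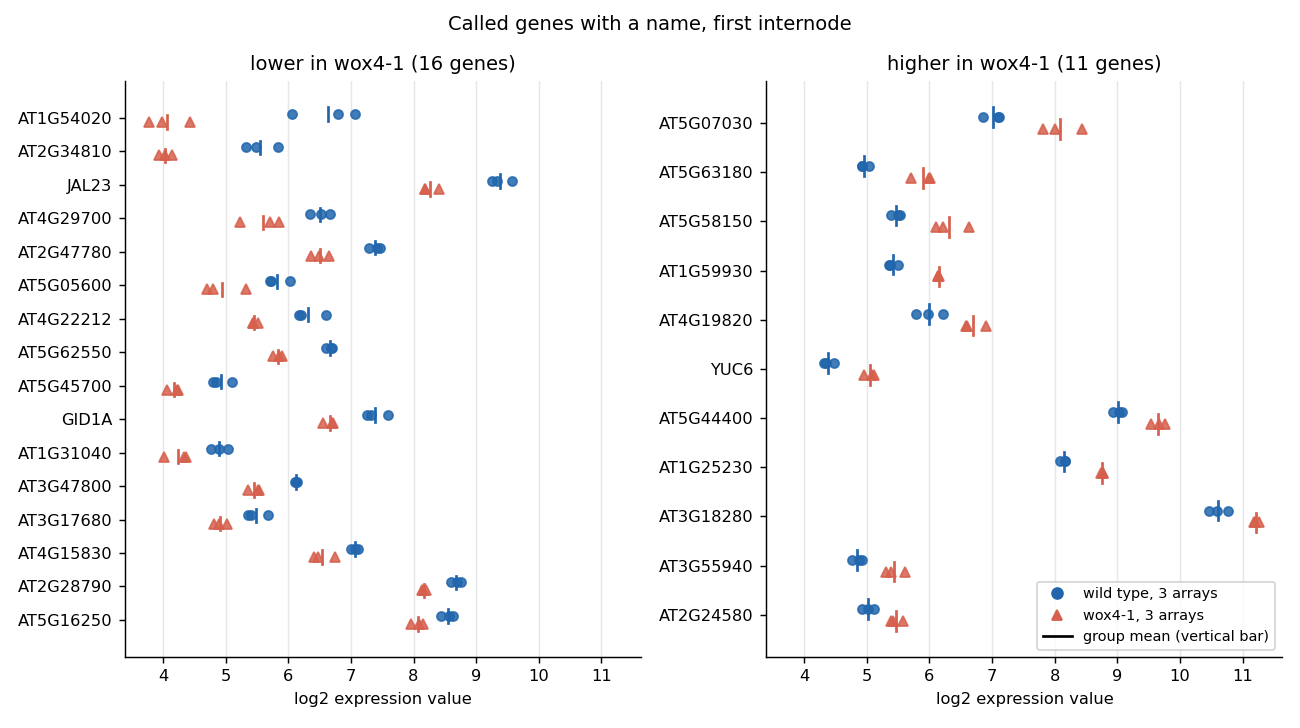
Log2 expression values (horizontal axis) of the 27 called named genes (rows) on each of the 3 wild-type arrays (circles) and the 3 wox4-1 arrays (triangles) of the first internode, with a vertical bar at each group mean. In no row do circles and triangles overlap, as the choice of called genes favours. The gap is widest for AT1G54020, whose mutant arrays lie between 3.77 and 4.43.

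The other 9 named genes that fell follow. AT4G29700, of the alkaline phosphatase-like family, measured 6.52, 6.34 and 6.67 in wild type and 5.85, 5.71 and 5.23 in wox4-1, and fell by 0.91 (SE 0.16, adjusted p 0.0336). AT2G47780, of the rubber elongation factor family of lipid droplet proteins, measured 7.46, 7.29 and 7.42 against 6.65, 6.49 and 6.37 and fell by 0.88 (SE 0.16, adjusted p 0.0441). Neither pair of groups overlapped. AT3G47800, of the aldose epimerase family, was even among wild-type arrays (6.12, 6.14 and 6.11), measured 5.51, 5.35 and 5.53 in wox4-1 and fell by 0.66 (SE 0.10, adjusted p 0.0103). AT1G31040, a PLATZ zinc-binding transcription factor, measured 5.04, 4.90 and 4.76 against 4.02, 4.33 and 4.36 and fell by 0.66 (SE 0.11, adjusted p 0.0233). AT5G45700, for a phosphatase of the haloacid dehalogenase-like family, fell by 0.74 (SE 0.13, adjusted p 0.0322). AT3G17680, of a family of actin-binding kinase-interacting proteins, fell by 0.58 (SE 0.11, adjusted p 0.0454), and AT4G15830, an armadillo repeat protein, by 0.52 (SE 0.09, adjusted p 0.0382). AT5G62550 fell by 0.83 (SE 0.12, adjusted p 0.0103), from 6.70, 6.69 and 6.61 to 5.90, 5.86 and 5.76. The 16th gene that fell, AT5G16250, lies outside the rule by which genes were named and fell by 0.48 (SE 0.09, adjusted p 0.0454). None of these 9 falls passed without wild-type replicate 2, with adjusted p between 0.0520 and 0.0925.

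The called genes were spread over the 5 nuclear chromosomes, with 4, 5, 5, 4 and 9 on chromosomes 1 to 5. Of 23 adjacent protein-coding genes with a named probe set, none was called (limma), against 0.202% of named genes, and 5 had an unadjusted p under 0.05, against 7.27%. AT5G44390 and AT5G44410, which flank the berberine bridge enzyme-like gene AT5G44400, had log2 changes of 0.04 and -0.04. AT2G28780, next to the thaumatin gene AT2G28790, had a change of -0.57 or beyond (adjusted p 0.579) in the internode.

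Those genes known to steer the cambium that could be measured were not called in the internode. Of 33 cambium regulators on the list, only 7 had a named probe set, and the rest were not assessed. Among the 7, 0 were called by limma, against 0.202% of all named genes, and 0 had an unadjusted p under 0.05, against 7.27%. With so few genes these counts say little. CLE41, which encodes TDIF, measured 9.11, 9.08 and 9.28 in wild type and 9.23, 9.33 and 9.15 in wox4-1, a log2 change of 0.08 (SE 0.09, adjusted p 0.906) with overlapping groups. CLE44, for the same peptide, measured 6.34, 6.38 and 6.53 against 6.58, 6.67 and 6.38 (0.12, SE 0.11, adjusted p 0.877). MOL1, a receptor kinase that restrains the cambium, measured 7.09, 6.93 and 6.88 against 6.61, 6.97 and 6.78 (-0.18, SE 0.11, adjusted p 0.773). The differences of these 3 genes lay within the spread of the arrays. PHV, a class III homeodomain-leucine zipper factor of vascular patterning, had a change of -0.02 (SE 0.11, adjusted p 0.985), and LHW, a bHLH factor that promotes divisions of young vascular cells, -0.11 (SE 0.11, adjusted p 0.892). The receptor kinases PXL1 (AT1G08590) and PXL2 (AT4G28650), relatives of PXY, had changes of -0.19 (SE 0.11, adjusted p 0.750) and 0.08 (SE 0.11, adjusted p 0.937), and PXL2 lay near the low end, at 2.83 to 3.09. At the base, CLE44 was called higher in wox4-1 (0.48, SE 0.11, adjusted p 0.0275) and LHW lower (-0.54, SE 0.11, adjusted p 0.0129). The other 5 were not called at the base, where 2.25% of all named genes were called higher and 2.22% lower.

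Genes of mitosis and DNA replication lay mostly below 0 without a call. Of 11 measured members, 9 had a lower mean in wox4-1 and 5 an unadjusted p under 0.05, the median log2 change was -0.32, and 0 were called. Over all 13350 named genes the median was 0.004, and 7.27% had an unadjusted p under 0.05. AUR2, an Aurora kinase of the mitotic spindle, measured 5.28, 5.15 and 5.14 in wild type and 4.67, 4.51 and 4.32 in wox4-1. Its groups did not overlap, and its change of -0.69 (SE 0.14) missed the threshold at an adjusted p of 0.0609, or 0.171 without wild-type replicate 2. BUB3.1, of the spindle checkpoint, measured 7.00, 6.78 and 6.77 against 6.61, 6.45 and 6.42 (-0.35, SE 0.10, adjusted p 0.203). The kinesin genes AT1G72250 and AT2G22610 had changes of -0.43 and -0.34 in the internode (adjusted p 0.526 and 0.595). At the base both were called lower, at -0.70 and -0.55 (adjusted p 0.0334 and 0.0494), as was the kinesin gene AT3G44050 at -0.59 or beyond (adjusted p 0.0105). These were the 3 base calls of the list, where 2.22% of all named genes were called lower. ICU2, the catalytic subunit of DNA polymerase alpha, and PRL, a subunit of the replicative helicase, had changes of 0.06 and 0.06. Without wild-type replicate 2 the median of the list was -0.36.

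Lists that describe the differentiated tissues of the stem had no call in the internode. The 4 secondary wall enzymes GUT1, GUT2, IRX15 and IRX15-L, which build xylan, had changes between 0.09 and 0.17, all above 0 and none called. The 14 further genes known to be expressed with them had a median of 0.06, and 0 of them had an unadjusted p under 0.05. Of 8 genes of lignin and monolignol metabolism 2 lay above 0 and 6 below, with a median of -0.03, and none was called. Their changes ran from -0.19 to 0.09. HCT, an enzyme of monolignol synthesis, had a change of 0.08 (SE 0.10, adjusted p 0.921). Only 2 phloem genes were measured, both with a lower mean in wox4-1. OPS, a regulator of protophloem, had -0.25 (adjusted p 0.630) and SWEET11, a sucrose exporter, -0.40 (adjusted p 0.782). Of 6 epidermal genes 3 lay above 0 and 3 below, with a median of 0.0, a highest change of 0.28 and none called. The lowest, FMA, a bHLH factor of guard cell formation, measured 4.27, 4.02 and 4.10 in wild type and 3.69, 3.65 and 3.74 in wox4-1. FMA had a change of -0.44 or beyond (adjusted p 0.177). Of 20 nuclear genes of photosynthesis 19 lay above 0, with a median of 0.14 and 0 called. Of 129 cytosolic ribosomal proteins 108 lay below 0, with a median of -0.07 and 0 called. These counts by sign were not tested. An unadjusted p under 0.05 was found for 3 and 17 of them, against 7.27% of all named genes. The medians were 0.07 and -0.05 without wild-type replicate 2, and 0.21 and -0.09 without wox4-1 replicate 2. The standard deviation of the list medians between replicate arrays was 0.11 and 0.07. At the base, 6 of the photosynthesis genes were called higher in wox4-1 and 2 of the ribosomal protein genes lower, against 2.25% and 2.22% of all named genes.

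Large families of the wall and of the cell surface held 0 to 2 calls each. With 0.202% of all named genes called, such counts say little about a family of this size. Of 70 GDSL lipase genes AT1G54020 was the only call and the median change was 0.02, while AT3G53100 and AT3G16370 had rises of 0.59 and 0.58 that missed the threshold (adjusted p 0.0863 and 0.110). Of 69 genes of pectin enzymes AT5G63180 was the only call (median 0.03), and AT4G23820, of the same broad group, had 0.44 (adjusted p 0.111). Of 38 lipid transfer protein genes AT3G18280 was the only call (median 0.01), and of 22 berberine bridge enzyme-like genes 1 was called in each direction (median -0.04). No call was made among 55 class III peroxidases, 22 TBL genes of wall acetylation and 18 expansins. An unadjusted p under 0.05 was found for 9, 6 and 4 of them, against 7.27% of all named genes. In all, 39 lists had at least 3 measured members, and 32 of them had no call.

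**Figure D3:**
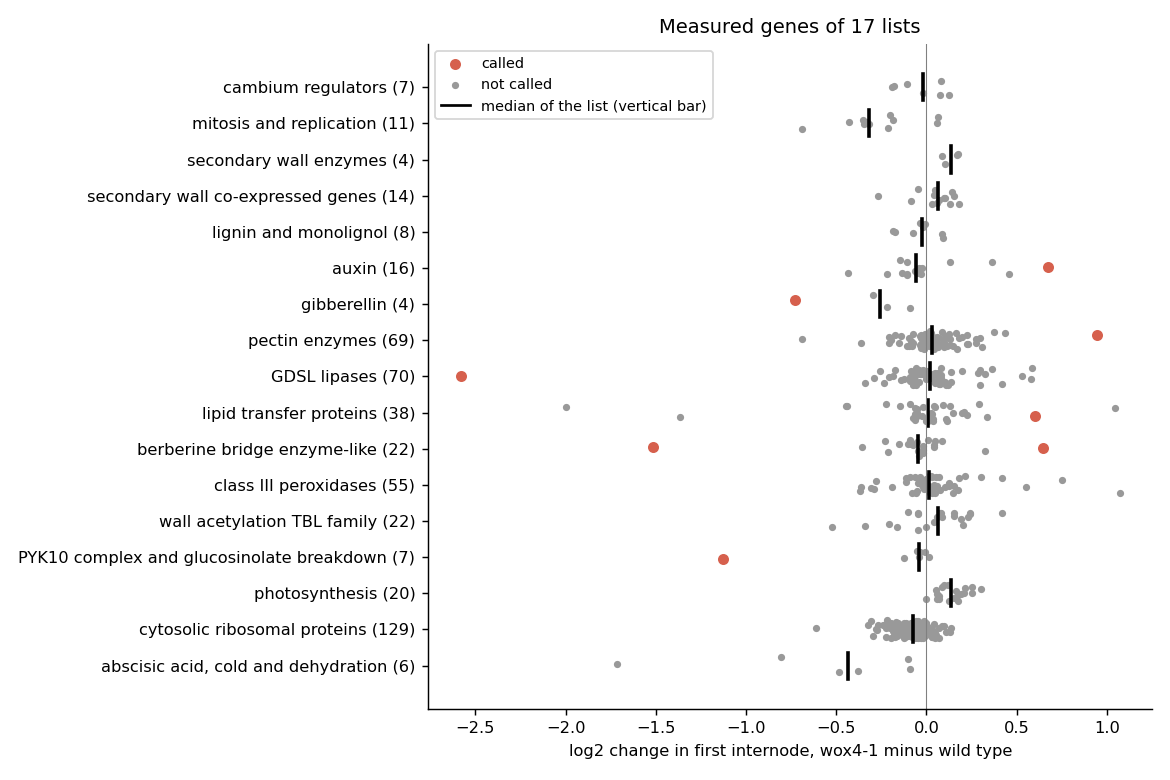
Log2 change in the first internode (wox4-1 minus wild type, horizontal axis) of the measured genes of 17 lists (rows, number of genes in brackets), with called genes in colour and a bar at each median. The medians lie between -0.43 and 0.14, and 8 genes are called, of which AT1G54020 of the GDSL lipases is farthest from 0.

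All 55 probe sets called in the internode had the same direction of change at the stem base. The share of all probe sets with the same direction at both positions is not given here. There, 1146 probe sets were called (5.04%), 574 higher (2.52%) and 572 lower (2.51%) in wox4-1, or 998 and 380 after median centring. Of the 55 internode calls, 43 (78.2%) were also called at the base, which is 3.75% of the base calls. The internode and base changes come from different arrays, but their tests share an estimate of spread per probe set, fitted to the arrays of both positions. Without wox4-1 base replicate 1, the internode calls rose from 55 to 110. A low shared estimate favours calls at both positions, and the overlap of calls from separate fits is not given here. Wild-type arrays of the 2 positions with the same number also deviated together (r of 0.294, 0.592 and 0.308 over all probe sets). The internode and base comparisons are therefore not independent, and the agreement in direction and the overlap of 43 calls are a description. In the opposite view, 1010 of the 1146 base calls (88.1%) had the same sign in the internode, where those higher at the base had a median log2 change of 0.20 against 0.49 at the base, and those lower -0.16 against -0.48. Choosing probe sets by their change at the base favours smaller changes in the internode, so these medians are a description.

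Of the 27 named genes, 21 were called at both positions, 7 higher and 14 lower. AT5G63180, the pectate lyase-like gene, measured 6.21 on average in wild type and 7.60 in wox4-1 at the base, a rise of 1.39 (SE 0.10, adjusted p 5.01e-05). JAL23 fell by 1.21 at the base (SE 0.14, adjusted p 0.000481), close to its internode change of -1.13. AT1G54020 fell by 1.99 (SE 0.29, adjusted p 0.00205), GID1A by 0.87 (SE 0.12, adjusted p 0.00151), and YUC6 rose by 0.77 (SE 0.11, adjusted p 0.00221). AT5G44400 rose by 0.87 and AT1G25230 by 0.60, and AT4G22212, AT3G47800 and AT2G28790 fell by 0.96, 0.77 and 0.70, all with adjusted p of at most 0.00182. For none of these genes did the difference between positions pass (adjusted p 0.505 to 0.981).

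Called in the internode and not at the base were 12 probe sets, 6 of them named. AT5G07030 had a change of 0.45 at the base (adjusted p 0.101) against 1.06 in the internode. AT3G18280 had 0.17 (adjusted p 0.265) against 0.60, and AT2G24580 had 0.16 (adjusted p 0.282) against 0.43. AT5G58150, AT5G05600 and AT3G17680 had 0.46, -0.48 and -0.32 (adjusted p 0.0959 to 0.103). The test of the difference itself called none of the 12, with the smallest adjusted p, 0.492, for AT3G18280, so that none of these genes was shown to respond in the internode alone. Over all probe sets the difference between the genotype effects was called for 1 (0.0044%), which was not among the 55.

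**Figure D4:**
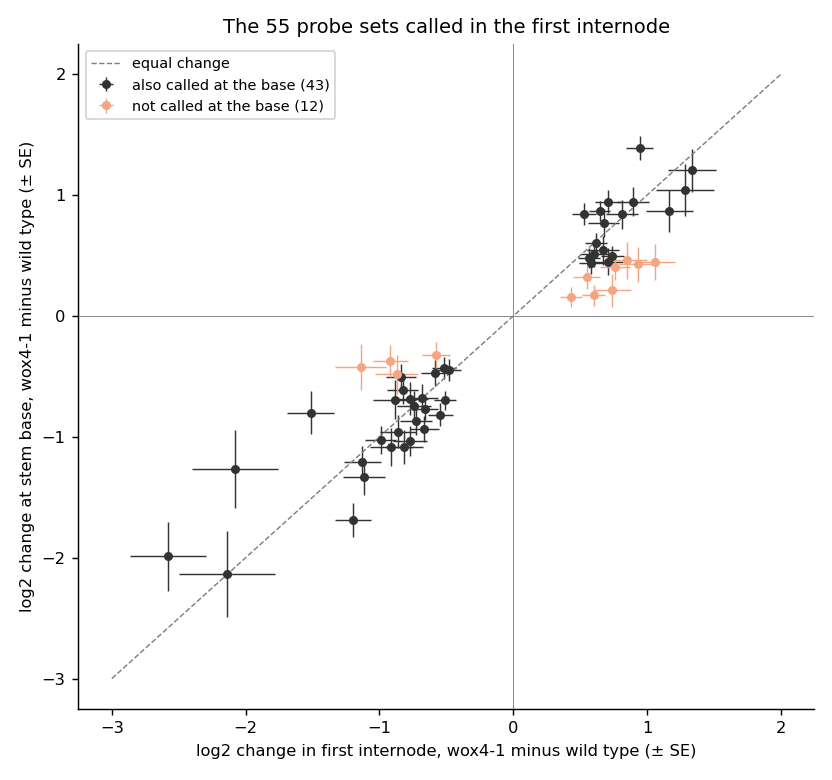
Log2 change at the stem base (vertical axis) against that in the first internode (horizontal axis), both wox4-1 minus wild type with SE bars, for the 55 probe sets called in the internode. All points lie in the quadrants of equal sign, 43 are also called at the base, and 34 have the smaller change there, as their choice by the internode change favours.

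Leaving out wild-type replicate 2 of the internode reduced the calls from 55 to 20, of which 18 were among the 55, 9 higher and 9 lower. The 9 named genes still called were AT1G54020, AT2G34810, JAL23, AT4G22212, AT5G63180, AT5G07030, AT5G44400, AT1G25230 and AT1G59930. The log2 changes themselves moved little: all 55 kept their sign, and 49 moved by less than 0.1. The largest move was that of 265058_s_at, an unnamed probe set, which measured 7.89, 9.44 and 8.17 in wild type and 6.13, 6.68 and 6.45 in wox4-1. Its change went from -2.08 (SE 0.32, adjusted p 0.0175) to -1.61 (adjusted p 0.0266). Leaving out another array gave 22 calls (wild-type replicate 1), 59 (wild-type replicate 3) and 28, 30 and 20 (wox4-1 replicates 1, 2 and 3). Of the 30 calls without wox4-1 replicate 2, the array with the high actin difference, 24 were among the 55. Of the 27 named genes 12 passed in that fit, against 9 without wild-type replicate 2. In the 6 leave-one-out fits of the internode, 7 of the 27 were called every time and 7 never, among the latter AT5G58150, AT2G47780, AT5G45700 and AT3G17680, while GID1A and YUC6 were called in 1.

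The genes high in wild-type replicate 2 included genes of dehydration and embryo maturation, a group picked out after the values were seen. Of 35 measured genes of the late embryogenesis abundant (LEA) protein family, which protects cells as they dry, 7 were over 2-fold higher there than on both other wild-type arrays, against 0.367% of all named genes. AT3G17520, a LEA gene, measured 3.56, 9.23 and 3.56 in wild type and 3.67, 3.57 and 3.41 in wox4-1. LEA4-5 measured 3.58, 8.30 and 4.17 against 3.91, 3.51 and 3.49, and the dehydrin gene LTI30 8.34, 11.46 and 8.21 against 8.77, 8.32 and 8.50. On all 3 the second wild-type array was alone, and the other 5 arrays overlapped. With all arrays their log2 changes were -1.90 or beyond, -1.71 or beyond and -0.81, none of them called (adjusted p 0.834 to 0.918), and without wild-type replicate 2 they were -0.01, -0.24 and 0.25, the first 2 between groups that both lay near or under log2 4. SAG29, a sugar transporter induced in senescence, went from -1.46 to -0.07, and the cold-regulated gene COR15A from -0.48 to 0.52 (adjusted p 0.939 and 1.0). Of the 49 named genes high in this array, 33 were also over 2-fold higher in wild-type replicate 2 at the base, with values there of 9.87 for AT3G17520, 9.12 for LEA4-5 and 11.61 for LTI30. AT5G52390 was not: it reached 10.82 in the internode, against 4.16 and 4.29 in the other wild-type arrays, and 4.38 at the base.

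Because these 49 genes were chosen for their height on 1 wild-type array, leaving it out must raise their change, and the values are a description. With all arrays 47 of them had a negative log2 change and the median was -0.69. Without that array the median was -0.03, the range was -0.57 to 0.72, and none was called in either fit (limma). With all arrays 3 of them had an unadjusted p under 0.05, against 7.27% of all named genes. Of 38 probe sets that were 2-fold or more lower in wox4-1 on average but not called, 32 were among those high in wild-type replicate 2, and 4 kept a 2-fold change without it. The list of abscisic acid, cold and dehydration genes had a median of -0.43 over 6 genes with all arrays and -0.05 without it, and 35 LEA genes -0.06 and -0.02. Only 1 of the 102 probe sets that were high in wild-type replicate 2 was among the 55 calls, namely 265058_s_at.

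**Figure D5:**
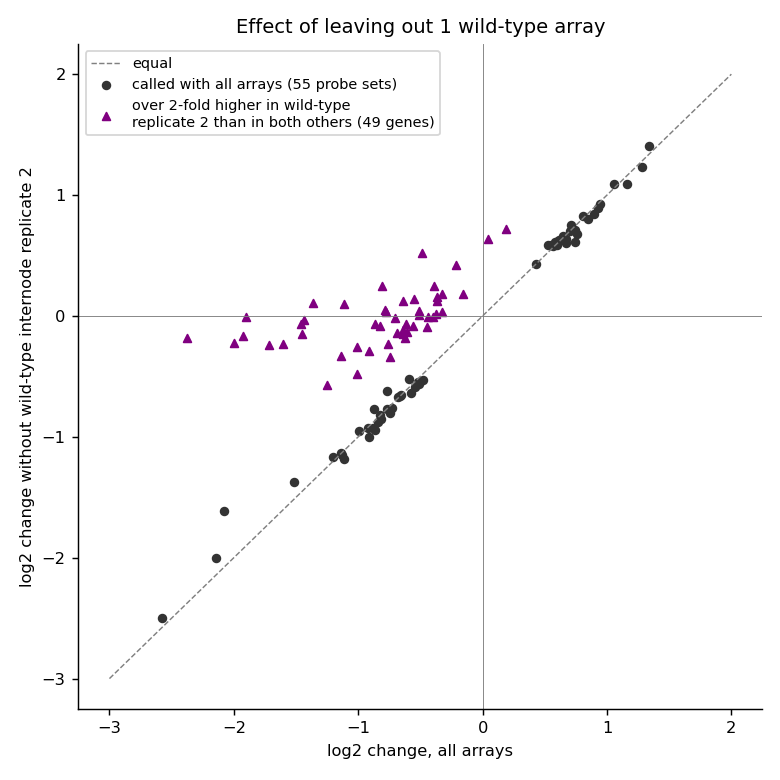
Log2 change without wild-type internode replicate 2 (vertical axis) against that with all arrays (horizontal axis), both wox4-1 minus wild type. The 55 called probe sets (circles) lie along the line of equal values, whereas the 49 named genes high in wild-type replicate 2 (triangles) move from a median of -0.69 to -0.03, as their choice by that array entails.

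The probe sets without a name in the tables used here made up 28 of the 55 calls, 14 in each direction, and included some of the largest changes. The probe set 245928_s_at measured 8.89, 9.04 and 8.33 in wild type and 7.37, 5.82 and 6.66 in wox4-1, with a wide spread in the mutant and no overlap. It fell by 2.14 (SE 0.36, adjusted p 0.0276), and was not called without wild-type replicate 2 (adjusted p 0.101). The probe set 249727_at measured 5.18, 5.31 and 4.98 against 6.35, 6.80 and 6.32, the largest called rise (log2 1.33, SE 0.18, adjusted p 0.00756), and it was called in all 6 leave-one-out fits. Over all 55, 13 probe sets were called in every one of these 6 fits and 13 in none, and every log2 change kept its sign in all 6.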

How the data were processed

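Total RNA of stem segments was labelled and hybridised to Affymetrix ATH1 arrays. The authors deposited 1 log2 value per probe set and array, made with RMA per the submitters' processing notes. RMA corrects background, normalises quantiles across arrays and summarises the probes of a set, so that a shift common to most transcripts would not be seen. Its version is not given in the sources used here. Of 22810 probe sets, 64 controls were set aside. By the probe table given for this array, 13513 probe sets carried 1 gene, 503 several and 8730 (38.4%) no name, and 13436 matched the reference gene table (TAIR10.1), which was used for names and neighbours only. Gene families and roles are background knowledge.

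A group-means model was fitted with limma 3.58.1 (R 4.3.3) to the 12 arrays, which share the estimate of spread, with eBayes and Benjamini-Hochberg adjustment over 22746 probe sets. Calls are adjusted p under 0.05 with no minimum fold. Changes are wox4-1 minus wild type on the log2 scale, with moderated SE. A change with a group mean under log2 4 is a lower bound. Gaps are between the nearest arrays of the groups. In data simulated for this comparison over 22746 probe sets, 58% of shifts of log2 0.5 and 94% of shifts of log2 1 were called. In the same data 17 probe sets without a shift were called too. The number of shifted probe sets was a choice of the simulation and affects the adjusted p. The shares called may therefore differ in the real data. The simulated noise was independent between arrays, unlike that of the same-numbered wild-type arrays of the 2 positions. The number of arrays, 3 per group, limits the precision. The labels call the arrays biological replicates.

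Named genes are the 15 largest rises and 15 largest falls among called genes whose groups do not overlap, up to 4 called genes per list, all measured cambium regulators, and up to 8 genes called at both positions or for the difference. Lists were counted with 1 probe set per gene: of 57 lists, 8 had no measured gene and 10 had 1 or 2. The comparison, the lists and the tests were chosen with earlier results of these data known, and the LEA list was drawn up after its values were seen. Equal replicate numbers did not pair the genotypes in the internode: the deviations of same-numbered arrays correlated with r of 0.037, -0.017 and 0.059. Alternatives were leaving out arrays, median centring, a filter at a mean log2 of 5, eBayes with trend and robust, array weights, replicate blocks, 1 probe set per gene, the 6 arrays of a position alone and a minimum change of log2 0.2. A planned search of promoters was not run.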

Additional observations from a re-analysis of the deposited data

Results flagged for a closer look

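The unnamed probe set 250891_at was the only one called in the main fit for a difference between the genotype effects at the 2 positions. The test was that of the difference itself (internode minus base log2 -2.07, SE 0.23, limma adjusted p 0.00912). In the internode it measured 3.29, 3.68 and 3.23 in wild type and 3.39, 3.08 and 3.24 in wox4-1, near the low end of the scale and with overlapping groups. At the base it measured 3.91, 4.55 and 3.97 in wild type and 6.08, 5.97 and 6.10 in wox4-1, a rise of 1.90 (SE 0.16, adjusted p 7.9e-05). The call on 250891_at was lost without wox4-1 internode replicate 2 or 3 (adjusted p 0.0555 and 0.0507, log2 -1.99 and -2.07), and other settings called up to 7 probe sets. With the fixed and the random replicate block its adjusted p was 0.0110 and 0.00255.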

How the results depend on the processing

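The number of calls in the internode depended on the arrays and the variance model more than the log2 changes did. Leaving out 1 array at a time, base arrays included, gave 20 to 110 calls, the highest without wox4-1 base replicate 1. The counts were 59 after median centring, 61 with the filter, 88 with trend and robust eBayes, 182 with array weights, 26 with 1 probe set per gene, 42 with the 6 internode arrays alone and 8 against a minimum change of log2 0.2. A replicate block gave 58 calls as a fixed term, 64 as a random term of line and number and 44 within the 6 internode arrays. Chosen after seeing the data, leaving out both wild-type replicate 2 arrays gave 25 calls, the 6 internode arrays without wild-type replicate 2 gave 19, and leaving out replicate 2 of both genotypes gave 0 (1181 probe sets with an unadjusted p under 0.05). None of the 27 named genes was called in every setting, which the setting with 0 calls fixes in advance, and none changed sign in a called state. Of 156 recomputed list medians, 1 moved by more than the spread between replicates. At the base, leaving out 1 array gave 342 to 1459 calls, the 6 base arrays alone 403, 1 probe set per gene 600 and leaving out both wild-type replicate 2 arrays 282. The difference between positions gave 0 to 3 calls when 1 array was left out, 7 after centring, 7 with trend and robust eBayes, 5 with array weights, 3 with the fixed and 7 with the random replicate block, 4 with 1 probe set per gene and 0 with the filter (1065 with an unadjusted p under 0.05). The causes of these shifts were not tested.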
